A study of Mus musculus with 12 samples.

Results

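The 58 genes described here are the Wnt ligands and the genes that secrete, enhance, block, receive and pass on their signal, measured by bulk RNA-Seq of polyadenylated RNA in NE-4C cells. They were chosen by symbol alone, as every numbered Wnt, Fzd, Dkk, Sfrp, Rspo and Dvl gene together with Lrp5, Lrp6, Axin1, Axin2, Ctnnb1, Lef1, Tcf7, Tcf7l1, Tcf7l2, Porcn, Wls, Notum, Vangl1 and Vangl2, and made up 58 of the 57010 genes in the table. By role they were 19 ligands, 2 secretion genes, 4 enhancers, 9 inhibitors, 12 receptors, 6 transducers, 4 nuclear factors and 2 polarity genes. NE-4C is a neural progenitor line from embryonic mouse brain that is immortal through loss of p53 and turns toward neurons when given retinoic acid (RA). The study compared wild-type (WT) cells with a Faf2 knockout (KO) line, each untreated (NO) or treated with RA, in 4 groups of 3 libraries. FAF2 is an adaptor at the endoplasmic reticulum (ER) that helps to extract misfolded proteins for degradation by the proteasome. The KO line was grown from a picked colony after CRISPR/Cas9 removed an exon of Faf2, so the deletion and the clone cannot be told apart. RA cells received 1 µM all-trans retinoic acid for 24 h, then basal medium, and were collected 3 days after induction, while NO cells were collected without treatment, so RA and the days in culture cannot be told apart either. Cells came from independent passages of the same lines, and the p values measure the spread between these.

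Wnt proteins are lipid-modified ligands. The acyltransferase PORCN attaches the lipid in the ER, and the carrier WLS takes the modified ligand to the cell surface. There it binds a Frizzled receptor with LRP5 or LRP6, which stabilizes beta-catenin for transcription with LEF1 and TCF factors, or acts through Frizzled and Vangl proteins on cell polarity. In the embryonic neural tube Wnt signals are known for dorsal and posterior patterning and for the growth of progenitors, and RA is known to act on the same axis.

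Library totals lay between 17370069 and 30738717 estimated counts. KO RA replicate 3 stood apart from every other library. Its 100 most abundant genes took 62.5% of its counts against 37.1% to 50.4% elsewhere, mitochondrial genes took 23.5% against 9.10% to 17.7%, and its TMM scaling factor was 0.394 against 0.872 to 1.28. In that library 24 of the 46 Wnt genes tested lay at least 2-fold below both other KO RA libraries and 1 (Wnt9a) at least 2-fold above, against 27.7% and 23.5% of all genes tested. Calls and counts that involve KO RA are therefore given with and without it. WT NO replicate 3 and WT RA replicate 2 also left their groups in several Wnt genes. Faf2 itself was at 49.97, 38.8 and 36.0 CPM (counts scaled to a common library size) in WT NO and 21.0, 21.7 and 25.4 CPM in KO NO. After RA it was at 35.1, 37.8 and 49.0 CPM in WT and 36.1, 34.3 and 18.7 CPM in KO. The untreated groups did not overlap, whereas KO RA replicates 1 and 2 lay at or near the lower WT RA values and KO RA replicate 3 lay below them. The table counts the whole gene, the exons left in place included, so these levels do not check the deletion, and the genotype of each library is taken from its label. Summed CPM of 10 neural progenitor markers ran from 409.7 to 976 over the 12 libraries, and that of 6 pluripotency markers from 1354 to 3616.

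Levels are given as CPM after TMM scaling. The deposited counts are scaled for transcript length, so levels on this CPM scale can be set side by side between genes. A count here is thus a scaled value rounded to a whole number, and the same count stands for different numbers of reads in different genes. Of the 58 genes, 39 were above a floor of 3 counts in every library, among them all 12 receptors, 6 transducers, 4 nuclear factors, 2 polarity genes and 2 secretion genes. Only 7 of 19 ligands, 2 of 4 enhancers and 4 of 9 inhibitors were. Wnt10a, Wnt16 and Wnt2 stayed at or below the floor in every library. In WT NO the summed level was 33.8 CPM for the ligands and 201 CPM for the receptors. Ctnnb1, which encodes beta-catenin, had the highest level of all members in each library. In bulk RNA a change in the number of cells of a type and a change in RNA per cell cannot be told apart.

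**Figure D1:**
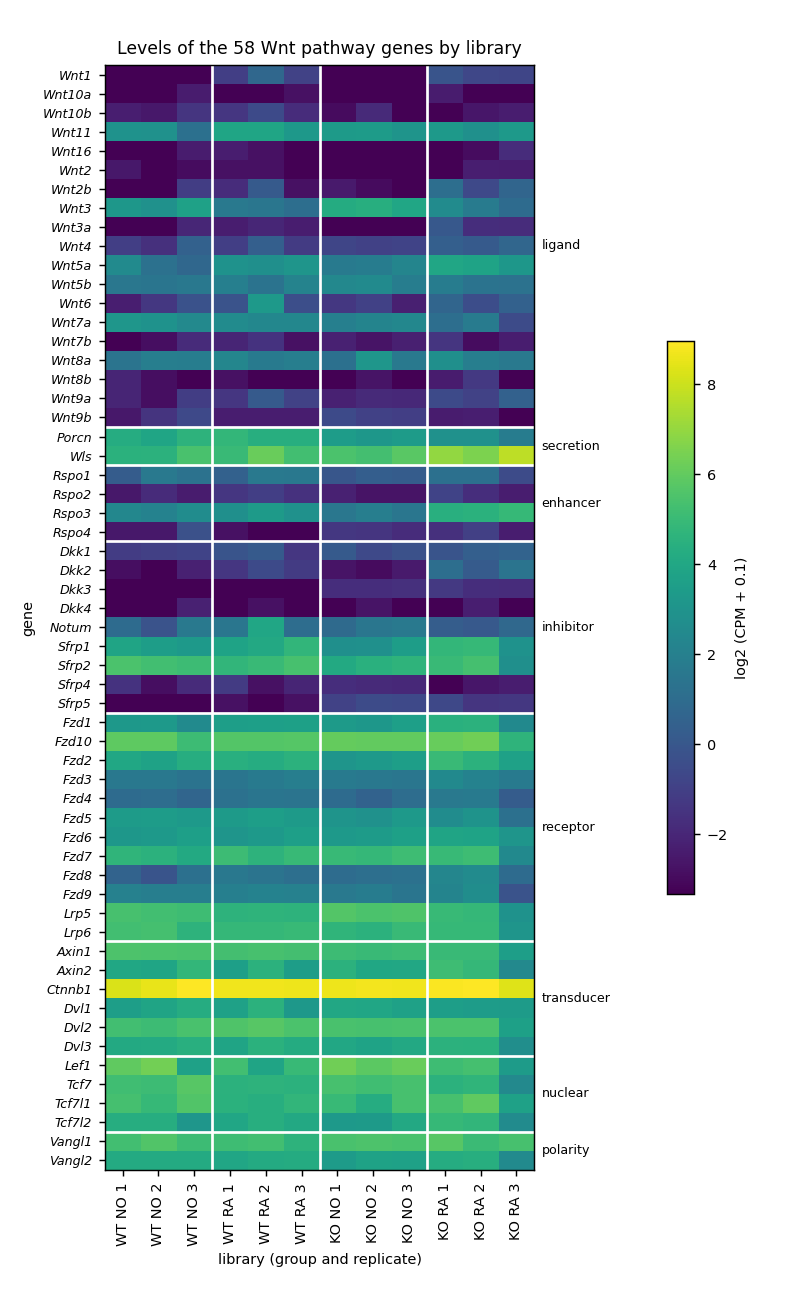
Heat map of log2 (CPM + 0.1) for the 58 Wnt pathway genes (vertical axis, grouped by role) in the 12 libraries (horizontal axis, 3 per group). Most ligands sit near the bottom of the colour scale, receptors and transducers near its upper end, and KO RA replicate 3 is darker than KO RA replicates 1 and 2 in 24 of the 46 genes tested by at least 2-fold.

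Differences between groups were tested in 46 of the 58 genes with edgeR's quasi-likelihood test and Benjamini-Hochberg adjustment over 16502 genes, and called at an adjusted p under 0.05. Without treatment 1 Wnt gene was called between KO and WT cells, the inhibitor Sfrp5, which was higher in KO, where 1.14% of all genes tested were called. After RA 2 were called between KO and WT, Rspo3 higher and Porcn lower in KO, where 1.24% of all genes were. The RA response of KO cells called 7 Wnt genes, with Rspo3, Wls, Wnt1, Wnt5a, Dkk2 and Fzd2 higher and Wnt3 lower, and 5.48% of all genes. In WT cells edgeR called 0 Wnt genes for the RA response, with 8 at an unadjusted p under 0.05, where it called 0.406% of all genes. There DESeq2 called 2 Wnt genes, Wnt1 and Wnt3, beside 924 of all genes. Limma-voom with sample weights called 13 Wnt genes, beside 3562 of all genes. The difference between the RA responses of KO and WT called 0 Wnt genes and 0% of all genes by edgeR. In it 6 Wnt genes were at an unadjusted p under 0.05. DESeq2 called Rspo3 alone there, beside 309 of all genes, and limma-voom 2 Wnt genes, beside 985 of all genes. The share of all genes at an unadjusted p under 0.05 is not given here, so such counts have no background beside them.

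Without KO RA replicate 3 the same test, over 17327 genes and 47 Wnt genes, called more genes in each comparison. All groups share 1 estimate of each gene's spread in this fit. Leaving out a KO RA library thus also alters the p values of comparisons that hold no KO RA library. It called 6 Wnt genes between KO NO and WT NO (background 8.77%), 4 between KO RA and WT RA (9.85%), 4 for the RA response of WT cells (10.8%), 16 for that of KO cells (16.0%) and 1, Rspo3, for the difference of the responses (1.34%). Without TMM scaling, on library totals, the median of all genes shifted to -0.26 on the log2 scale for the RA response of WT cells and to -0.17 for that of KO cells, while the median of the Wnt genes in WT cells moved from 0.18 to -0.07. In that fit edgeR called Rspo3 for the RA response of KO cells and no other Wnt gene in the 5 comparisons.

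Among the ligands, Wnt3 fell and Wnt1 and Wnt5a rose in KO cells given RA. Wnt3, a ligand of the beta-catenin branch, had the highest mean of the ligands in untreated cells. In WT NO it was not apart from Wnt7a, which was above it in replicate 2. Its level was 8.80, 7.35 and 12.7 CPM in the WT NO libraries and 18.5, 20.3 and 15.0 CPM in KO NO. After RA it was 3.03, 2.71 and 2.05 CPM in WT and 5.95, 3.34 and 1.88 CPM in KO. All RA libraries lay below all untreated libraries of their genotype, and the KO NO libraries lay above the WT NO ones. The fall in KO cells passed the test (log2 fold change -2.25, SE 0.38, edgeR adjusted p = 0.00915; -1.97 and 0.00338 without KO RA replicate 3), and its adjusted p stayed between 0.00338 and 0.0472 when any 1 library was left out. In WT cells the difference was -1.89 on the log2 scale with an edgeR adjusted p of 0.0705, which became 0.00483 without KO RA replicate 3. Between the untreated groups the log2 difference of KO from WT was 0.90 (95% interval 0.09 to 1.70, edgeR adjusted p = 0.341).

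Wnt1, the ligand of the roof plate and of the midbrain-hindbrain border, had 0 counts in all 6 untreated libraries. After RA it was at 0.384, 1.60 and 0.430 CPM in WT and 0.812, 0.511 and 0.495 CPM in KO. Every RA library was thus above every untreated one, at a low level, and WT RA replicate 2 was the highest. Wnt1 passed the filter on low counts only through RA libraries, so this separation and its call are not independent of that filter. Against 3 counts in the untreated library where these are worth most CPM, the mean was at least 7.26-fold higher in WT RA and at least 6.82-fold higher in KO RA. The rise in KO cells passed the test (edgeR adjusted p = 0.0243) and was lost without any 1 of the KO NO libraries or KO RA replicate 1, with adjusted p of 0.0183 to 0.0858 over the libraries left out. Without KO RA replicate 3 the edgeR adjusted p was 0.0183. For WT cells the edgeR adjusted p was 0.0766, or 0.0241 without KO RA replicate 3.

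Wnt5a, a ligand known for polarity signalling, was at 5.70, 2.33 and 1.59 CPM in WT NO and 3.28, 3.49 and 4.63 CPM in KO NO. RA libraries held 7.49, 6.78 and 8.40 CPM in WT and 15.3, 13.8 and 9.01 CPM in KO. Treated and untreated libraries did not overlap in either genotype, and each KO RA library was above each WT RA library. On library totals without TMM scaling the KO RA libraries overlapped both KO NO and WT RA. The rise in KO cells was called (log2 fold change 1.74, SE 0.42, edgeR adjusted p = 0.0387) and its log2 fold change was 1.92 without KO RA replicate 3 (edgeR adjusted p = 0.0112). Of the 12 fits that left out 1 library, those without WT NO replicate 1, WT NO replicate 3 or KO RA replicate 3 kept the call and the other 9 lost it (adjusted p of 0.0102 to 0.153). The log2 difference in WT cells was 1.24 (edgeR adjusted p = 0.247), and that between KO RA and WT RA was 0.75 (edgeR adjusted p = 0.357; without KO RA replicate 3, 0.94 and 0.173).

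The make-up of the ligand pool was compared with its sum. The summed CPM of the 19 ligands was 33.8 ± 2.80 in untreated WT libraries and 42.6 ± 7.44 in treated ones, and 46.9 ± 7.33 in untreated and 40.7 ± 8.98 in treated KO libraries (SD, n = 3). Shares of this sum do not depend on the scaling between libraries. Wnt3 took 23.8%, 23.1% and 39.1% of it in WT NO and 41.1%, 37.0% and 36.9% in KO NO. Its share was 7.12%, 5.41% and 5.82% in WT RA and 11.7%, 8.85% and 5.59% in KO RA. Wnt5a, by contrast, took 15.4%, 7.33% and 4.86% in WT NO and 30.1%, 36.5% and 26.8% in KO RA. Its share in KO RA was above that in each of the other 9 libraries, KO RA replicate 3 included. Wnt7a had mean shares of 21.3% ± 4.06 untreated and 12.7% ± 2.29 treated in WT cells, and 9.66% ± 2.20 untreated and 4.93% ± 3.66 treated in KO cells (SD, n = 3). These shares are a description and were not tested.

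**Figure D2:**
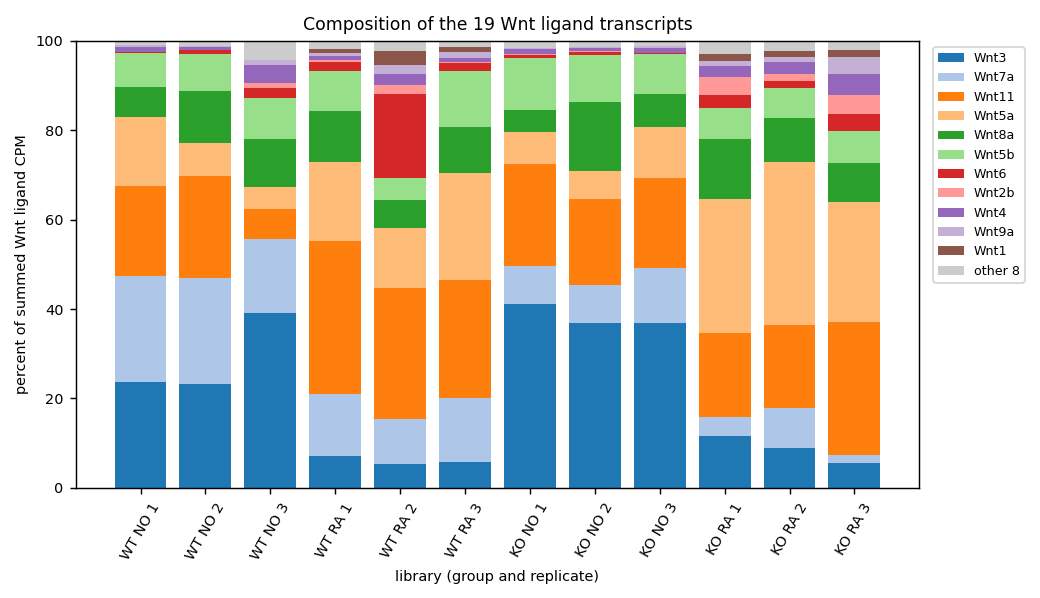
Stacked bars of the percent of summed Wnt ligand CPM (vertical axis) that each ligand took in each of the 12 libraries (horizontal axis); the 8 ligands with no colour of their own are grey. Wnt3 takes 23.1% or more in the untreated libraries and 11.7% or less in the RA libraries, Wnt5a is widest in KO RA, and Wnt6 takes 18.7% in WT RA replicate 2.

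Wnt11, another ligand of the polarity branch, was at 7.46, 7.24 and 2.20 CPM in WT NO and 14.6, 14.6 and 9.36 CPM in WT RA. KO libraries held 10.3, 10.6 and 8.17 CPM untreated and 9.56, 7.05 and 10.0 CPM with RA. WT RA lay above WT NO in every library, where WT NO replicate 3 was the lowest, while the KO groups overlapped. The log2 difference was 1.19 in WT (edgeR adjusted p = 0.244) and -0.13 in KO (edgeR adjusted p = 0.86; without KO RA replicate 3, -0.23 and 0.761), and the difference of both was -1.32 (edgeR adjusted p = 0.553).

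Wnt7a, a ligand of neural progenitors, was at 8.69, 7.57 and 5.43 CPM in WT NO and 3.80, 4.59 and 4.97 CPM in KO NO. After RA the values were 5.86, 5.04 and 5.01 CPM in WT and 2.07, 3.37 and 0.594 CPM in KO. KO libraries lay below WT libraries under both conditions and KO RA replicate 3 was the lowest, yet no comparison passed the test (for KO RA against WT RA, log2 fold change -1.35, SE 0.45, edgeR adjusted p = 0.175; without KO RA replicate 3, -0.96 and 0.0544).

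5 more ligands with few counts had RA and untreated KO groups that did not overlap, and none passed the test with or without KO RA replicate 3. Wnt2b was at 0.0878, 0.0296 and 0 CPM in KO NO and 2.07, 0.545 and 1.49 CPM in KO RA, at least 15.4-fold higher (edgeR adjusted p = 0.1). Wnt4 was at 0.498, 0.414 and 0.446 CPM and 1.22, 1.02 and 1.58 CPM in the same groups, with a log2 difference of 1.47 (edgeR adjusted p = 0.22). Wnt6 was at 0.293, 0.414 and 0.112 CPM and 1.49, 0.647 and 1.29 CPM, a log2 difference of 2.04 (edgeR adjusted p = 0.248). All 3 are ligands whose levels in every KO library were at most 2.07 CPM, so that few counts stand behind each value. Wnt9a was at 0.117, 0.178 and 0.167 CPM and 0.586, 0.443 and 1.29 CPM, with a log2 difference of 2.26 (edgeR adjusted p = 0.137). Wnt9b was lower with RA, at 0.585, 0.414 and 0.391 CPM in KO NO and 0.0902, 0.102 and 0 CPM in KO RA, at least 1.56-fold (edgeR adjusted p = 0.121). Wnt2b and Wnt9a passed the filter on low counts only with the help of the KO RA libraries, and Wnt9b only with that of the KO NO libraries. Their separations and p values are thus not independent of that filter. In WT cells Wnt2b, Wnt4, Wnt6 and Wnt9a were spread widely within groups, since WT NO replicate 3 and WT RA replicate 2 stood above both other libraries of their group; Wnt6 reached 9.40 CPM in WT RA replicate 2 against 0.668 and 0.769 CPM. Wnt5b and Wnt8a, at 2.59 to 2.96 and 2.50 to 3.73 CPM in WT NO, were called in none of the 5 comparisons, and the 7 other ligands (Wnt10a, Wnt10b, Wnt16, Wnt2, Wnt3a, Wnt7b and Wnt8b) did not pass the filter on low counts.

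The start regions of the called genes are shown because beta-catenin acts through LEF1 and TCF factors at such regions. RefSeq promoters of GRCm38.p6, 250 bases before to 50 after the annotated start, matched 38 of the 58 genes with 47 promoters; Axin1, Dkk3, Dkk4, Fzd2, Fzd3, Fzd6, Fzd8, Lrp5, Lrp6, Notum, Porcn, Rspo2, Rspo3, Sfrp1, Sfrp4, Vangl1, Wnt10a, Wnt5a, Wnt7b and Wnt8a had no entry. The LEF/TCF letters CTTTGAT and CTTTGAA, as well as CTTTGTT and CTTTGTA, were searched on both strands. They occurred in 7 of the 47 promoters (14.9%), against 16.9% of all 32851 promoters of the same length, so the share was close to that of any promoter. The 7 belong to Dkk1, Fzd7, Lef1, Tcf7l2, Wnt11, Wnt3 and Wnt5b. A direct repeat of the retinoic acid receptor letters AGGTCA or GGGTCA or else AGTTCA with 5 bases between them, on either strand, occurred in 0 of the 47 and in 0.0731% of all. The promoters of Wnt3 (chr11:103773925-103774224, plus strand), Wnt1 (chr15:98789607-98789906, plus strand), Wls (chr3:159839400-159839699, plus strand), Dkk2 (chr3:132085042-132085341, plus strand) and Sfrp5 (chr19:42202203-42202502, minus strand) follow, 5′ to 3′ in the direction of the gene, with any LEF/TCF match in capitals. Only the Wnt3 promoter holds one, starting 18 bases after the start; a match is a string of letters and not a shown site.
Wnt3: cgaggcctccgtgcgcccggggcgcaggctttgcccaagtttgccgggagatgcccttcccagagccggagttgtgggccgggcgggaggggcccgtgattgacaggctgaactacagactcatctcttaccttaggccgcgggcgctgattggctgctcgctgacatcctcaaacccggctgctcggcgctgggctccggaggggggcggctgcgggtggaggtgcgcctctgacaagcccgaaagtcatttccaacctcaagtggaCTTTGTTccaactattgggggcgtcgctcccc
Wnt1: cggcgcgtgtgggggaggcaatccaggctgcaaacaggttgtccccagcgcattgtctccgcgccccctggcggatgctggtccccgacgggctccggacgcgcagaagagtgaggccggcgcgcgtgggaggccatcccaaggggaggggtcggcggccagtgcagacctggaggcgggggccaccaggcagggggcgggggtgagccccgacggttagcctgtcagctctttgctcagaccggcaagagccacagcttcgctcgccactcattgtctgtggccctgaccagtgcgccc
Wls: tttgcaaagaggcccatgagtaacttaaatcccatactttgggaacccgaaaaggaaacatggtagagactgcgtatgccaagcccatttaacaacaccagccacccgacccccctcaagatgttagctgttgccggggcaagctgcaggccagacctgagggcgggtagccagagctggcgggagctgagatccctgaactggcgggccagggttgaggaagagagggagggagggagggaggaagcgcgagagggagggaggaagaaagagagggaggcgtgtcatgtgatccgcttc
Dkk2: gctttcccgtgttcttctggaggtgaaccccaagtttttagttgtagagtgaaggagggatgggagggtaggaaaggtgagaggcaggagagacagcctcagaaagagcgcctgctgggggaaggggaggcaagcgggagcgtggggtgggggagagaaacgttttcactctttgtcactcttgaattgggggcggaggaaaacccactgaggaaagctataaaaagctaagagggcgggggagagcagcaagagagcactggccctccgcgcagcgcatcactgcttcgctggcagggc
Sfrp5: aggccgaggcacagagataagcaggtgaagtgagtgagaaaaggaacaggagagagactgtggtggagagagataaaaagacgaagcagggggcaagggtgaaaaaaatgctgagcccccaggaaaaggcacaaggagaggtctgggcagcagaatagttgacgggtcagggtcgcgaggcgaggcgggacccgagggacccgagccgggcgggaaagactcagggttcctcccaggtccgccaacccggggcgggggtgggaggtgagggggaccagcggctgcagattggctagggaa

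Of the secretion genes, Porcn was lower in KO than in WT cells after RA, and Wls rose with RA in KO cells. Porcn (chrX:8059935-8073131 in GRCm39, minus strand) encodes the acyltransferase of the ER that all Wnt ligands need for their lipid. Its level was 19.2, 14.8 and 24.5 CPM in WT NO and 27.7, 20.5 and 20.3 CPM in WT RA. KO libraries held 10.7, 8.79 and 10.6 CPM untreated and 7.26, 7.25 and 3.47 CPM with RA. Every KO library lay below every WT library, so the groups did not overlap in either condition. Porcn was lower in KO RA than in WT RA (log2 fold change -1.91, SE 0.31, edgeR adjusted p = 0.0173), and still so without KO RA replicate 3 (log2 fold change -1.66, edgeR adjusted p = 0.00367). The call was lost without any 1 of the WT RA libraries, with adjusted p of 0.00367 to 0.0938 over the 12 libraries left out in turn. Between untreated cells the log2 difference was -0.96 (edgeR adjusted p = 0.19, or 0.0185 without KO RA replicate 3).

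Wls, the carrier of lipidated Wnt ligands, was at 22.9, 23.5 and 43.3 CPM in WT NO and 31.5, 70.3 and 37.9 CPM in WT RA. In KO cells it was at 45.0, 38.7 and 56.3 CPM untreated and 124, 92.0 and 214 CPM with RA. The 3 KO RA libraries were the highest of the 12, and KO RA replicate 3 was the highest of these. WT NO replicate 3 and WT RA replicate 2 each stood above their own group. Wls rose with RA in KO cells (log2 fold change 1.62, SE 0.41, edgeR adjusted p = 0.0446), and the log2 fold change was 1.20 without KO RA replicate 3 (edgeR adjusted p = 0.0445). The call was kept without WT NO replicate 3, WT RA replicate 2, KO RA replicate 2 or KO RA replicate 3 and lost in the 8 other fits that left out 1 library (adjusted p of 0.0322 to 0.172). For KO RA against WT RA the log2 difference was 1.62 (edgeR adjusted p = 0.0802; without KO RA replicate 3, 1.21 and 0.0578).

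Among the 10 calls of edgeR on Wnt genes, Rspo3 for the RA response of KO cells had the largest fold change of the genes above the floor. R-spondins bind LGR receptors and keep Frizzled receptors at the cell surface, which strengthens a Wnt signal. Rspo3 (chr10:29327285-29411876 in GRCm39, minus strand) was at 5.10, 4.21 and 6.19 CPM in WT NO and 2.78, 3.67 and 2.76 CPM in KO NO. With RA it was at 6.77, 10.2 and 7.35 CPM in WT and 21.3, 22.6 and 29.6 CPM in KO. The KO NO libraries lay below all others and the KO RA libraries above all others, with no overlap in any of the 4 comparisons between groups. On library totals without TMM scaling WT RA and WT NO overlapped, while the other comparisons stayed without overlap.

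Rspo3 rose with RA in KO cells (log2 fold change 2.99, SE 0.27, edgeR adjusted p = 0.000309), a call kept in all 22 alternatives, with adjusted p of 0.000106 to 0.00561 when 1 library was left out. It was higher in KO RA than in WT RA (log2 fold change 1.59, SE 0.26, edgeR adjusted p = 0.0166); without KO RA replicate 3 the log2 fold change was 1.43 (edgeR adjusted p = 0.00606). That call was lost without WT RA replicate 1 or WT RA replicate 3 (adjusted p over the 12 libraries left out, 0.00606 to 0.109). In WT cells the RA response was 0.65 on the log2 scale (edgeR adjusted p = 0.319). The RA response of KO cells exceeded that of WT cells by 2.34 on the log2 scale (95% interval 1.55 to 3.14, edgeR adjusted p = 0.0825) with all libraries, and by 2.18 without KO RA replicate 3 (edgeR adjusted p = 0.0191). Of the summed enhancer CPM, Rspo3 took 67.5% ± 12.4 in WT NO and 91.5% ± 5.13 in KO RA (SD, n = 3). Rspo1 was at 1.09 to 3.07 CPM in WT NO and was called in no comparison, and Rspo2 and Rspo4 were at 0.732 CPM or less in every library and were not tested.

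**Figure D3:**
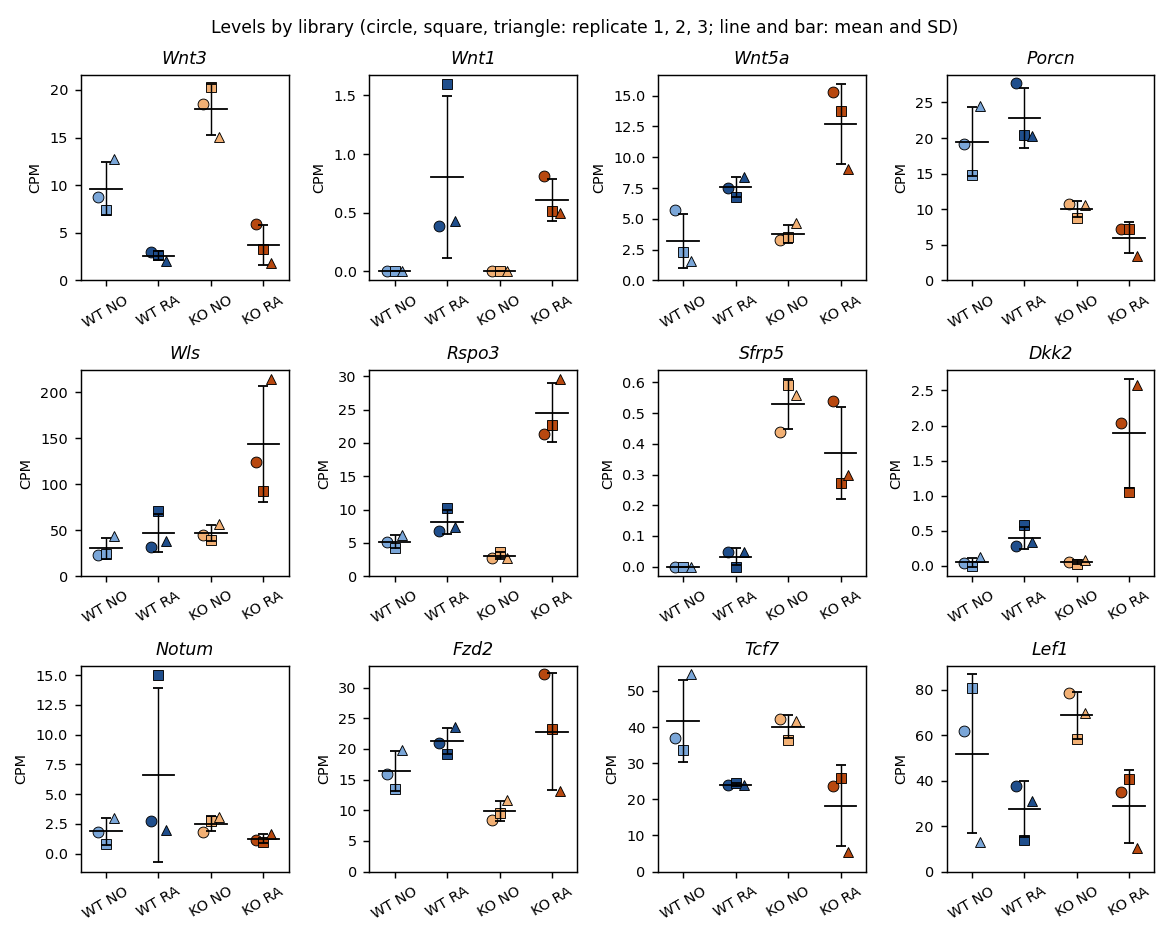
Level in CPM (vertical axes) of 12 Wnt pathway genes in each library, by group (horizontal axes); markers show replicates 1, 2 and 3, the line the mean and the bar the SD (n = 3). Rspo3 in KO RA (21.3 to 29.6 CPM) lies above all other libraries, and Porcn in KO lies below WT under both conditions. KO RA replicate 3 (triangle) is the lowest KO RA value for Wnt3, Wnt1, Wnt5a, Porcn, Fzd2, Tcf7 and Lef1. It is the highest for Wls, Dkk2, Rspo3 and Notum.

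Of the inhibitors, Sfrp5 was higher in untreated KO than in untreated WT cells and Dkk2 rose with RA in KO cells. Sfrp proteins bind Wnt ligands outside the cell. Sfrp5 had 0 counts in the 3 WT NO libraries and was at 0.0480, 0 and 0.0477 CPM in WT RA. KO libraries held 0.439, 0.592 and 0.558 CPM untreated and 0.541, 0.272 and 0.297 CPM with RA. Every KO library was above every WT library, at a level of under 1 CPM throughout. Sfrp5 passed the filter on low counts only through the KO libraries, so this separation and its call are not independent of that filter. The KO NO mean was at least 4.78-fold above the floor of WT NO (edgeR adjusted p = 0.0272), a call kept without WT RA replicate 2, KO RA replicate 1 or KO RA replicate 3 and lost in the 9 other fits that left out 1 library (adjusted p of 0.0158 to 0.127). After RA the KO mean was at least 2.55-fold above the WT floor (edgeR adjusted p = 0.125, or 0.0817 without KO RA replicate 3). Dkk3, which did not pass the filter and was chosen here after its values were seen, showed a like pattern, with 0 counts in all 6 WT libraries and 0.205 to 0.223 CPM in KO NO and 0.198 to 0.316 CPM in KO RA, values of 2 to 8 counts.

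Dkk2, which binds LRP5 and LRP6, was at 0.0352, 0 and 0.122 CPM in WT NO and 0.0585, 0.0296 and 0.0837 CPM in KO NO. RA libraries held 0.288, 0.581 and 0.334 CPM in WT and 2.03, 1.06 and 2.57 CPM in KO. Treated and untreated libraries did not overlap in either genotype, and each KO RA library lay above each WT RA library. Dkk2 passed the filter on low counts only through RA libraries, so its call is not independent of that filter. In KO cells Dkk2 rose at least 21.2-fold over the floor of KO NO (edgeR adjusted p = 0.011), and the call was lost without any 1 of the KO NO libraries and kept without KO RA replicate 3 (edgeR adjusted p = 0.00996). For WT cells the edgeR adjusted p was 0.209, and for KO RA against WT RA it was 0.19 at a log2 difference of 2.21 (without KO RA replicate 3, a log2 difference of 1.92 and an edgeR adjusted p of 0.186). WT NO replicate 3 was the highest of the WT NO libraries.

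Notum, an extracellular enzyme that removes the lipid from Wnt ligands, was at 1.83, 0.776 and 3.02 CPM in WT NO and 1.81, 2.72 and 3.04 CPM in KO NO. After RA it was at 2.74, 15.0 and 2.00 CPM in WT and 1.13, 0.987 and 1.68 CPM in KO. The WT RA mean rested on replicate 2, and all KO RA libraries lay below all WT RA libraries. The log2 difference of KO RA from WT RA was -2.40 (95% interval -4.06 to -0.74, edgeR adjusted p = 0.151), or -2.64 without KO RA replicate 3 (edgeR adjusted p = 0.0839). Over the 12 fits that left out 1 library it ran from -2.83 to -0.93 (edgeR adjusted p of 0.0839 to 0.492), and edgeR called it in none of them.

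Sfrp2 and Sfrp1 had the highest levels of the inhibitors. Sfrp2 was at 44.0, 37.1 and 33.8 CPM in WT NO and 17.6, 21.7 and 25.4 CPM in KO NO, without overlap. RA libraries held 27.0, 32.2 and 41.0 CPM in WT and 32.3, 40.0 and 6.83 CPM in KO, where replicate 3 was the lowest of all 12. Its log2 difference of KO NO from WT NO was -0.83 (edgeR adjusted p = 0.551, or 0.025 without KO RA replicate 3). For the RA response of KO cells it was 0.30 with all libraries (edgeR adjusted p = 0.719) and 0.74 without KO RA replicate 3 (edgeR adjusted p = 0.0353).

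Sfrp1 was at 14.2, 11.3 and 9.94 CPM in WT NO and 13.7, 17.1 and 27.3 CPM in WT RA. In KO cells it was at 6.73, 6.95 and 11.1 CPM untreated and 27.5, 29.8 and 7.63 CPM with RA, so that replicates 1 and 2 lay above all KO NO libraries and replicate 3 among them. The RA response of KO cells was 1.39 on the log2 scale (edgeR adjusted p = 0.102) and 1.78 without KO RA replicate 3 (edgeR adjusted p = 0.00383). Dkk1, an antagonist of LRP5 and LRP6, was at 0.352 to 0.457 CPM in WT NO and 0.562 to 1.02 CPM in KO NO and was called in no comparison, and Dkk4 and Sfrp4 did not pass the filter.

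Of the 12 receptors, Fzd2 alone was called with all libraries. Fzd2, a Frizzled receptor for WNT ligands of both branches, was at 15.9, 13.5 and 19.9 CPM in WT NO and 8.37, 9.56 and 11.7 CPM in KO NO. After RA the values were 21.0, 19.2 and 23.6 CPM in WT and 32.2, 23.3 and 13.1 CPM in KO. KO NO lay below all other groups without overlap. On library totals without TMM scaling KO RA and KO NO overlapped. Fzd2 rose with RA in KO cells (log2 fold change 1.21, SE 0.31, edgeR adjusted p = 0.045), with a log2 fold change of 1.48 without KO RA replicate 3 (edgeR adjusted p = 0.00181), and the call was kept without WT NO replicate 3 or KO RA replicate 3 and lost in the 10 other fits that left out 1 library (adjusted p of 0.00181 to 0.162). The difference of KO NO from WT NO was -0.73 on the log2 scale (edgeR adjusted p = 0.352, or 0.0435 without KO RA replicate 3). Fzd10, which had the highest mean of the receptors in each group, was at 59.1, 60.1 and 34.3 CPM in WT NO and 65.7, 64.5 and 64.6 CPM in KO NO. It was at 51.4, 50.4 and 51.7 CPM in WT RA and 69.2, 79.0 and 25.1 CPM in KO RA, and no comparison was called (for KO RA against KO NO, log2 difference -0.17, 95% interval -0.96 to 0.63, and 0.18 without KO RA replicate 3). WT NO replicate 3 and KO RA replicate 3 were the lowest libraries of their groups, and in these groups the Fzd10 values were not apart from those of the next receptor, which in WT NO was Lrp5.

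Fzd1, Fzd8 and Fzd9 passed the edgeR test for the RA response of KO cells without KO RA replicate 3 but not with all libraries. In KO RA, Fzd1 was at 22.0, 23.5 and 5.64 CPM against 10.1, 8.82 and 11.9 CPM in KO NO. Fzd8 was at 4.83, 6.06 and 1.88 CPM against 1.90, 2.16 and 2.26 CPM, and Fzd9 at 4.51, 6.37 and 0.792 CPM against 3.04, 3.49 and 2.65 CPM. In each case replicates 1 and 2 lay above KO NO and replicate 3 lay below it. Without replicate 3 the log2 fold changes were 1.13 for Fzd1, 1.36 for Fzd8 and 0.82 for Fzd9 (edgeR adjusted p = 0.00556, 0.0303 and 0.0319), and with all libraries they were 0.74, 1.03 and 0.37 (edgeR adjusted p = 0.291, 0.188 and 0.676). In WT cells Fzd1 was at 5.85 to 9.64 CPM in WT NO and 11.5 to 12.5 CPM in WT RA, Fzd8 at 0.813 to 2.20 and 2.10 to 2.88 CPM, and Fzd9 at 3.66 to 4.08 and 3.84 to 4.22 CPM. Fzd1 was also called between KO RA and WT RA without that library (log2 fold change 0.92, edgeR adjusted p = 0.0224).

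Lrp5, a co-receptor of the beta-catenin branch, had lower values after RA in both genotypes. EdgeR called these differences without KO RA replicate 3 but not with all libraries. It was at 41.2, 38.2 and 35.5 CPM in WT NO and 24.4, 25.3 and 24.0 CPM in WT RA. KO libraries held 50.5, 44.5 and 46.8 CPM untreated and 30.6, 29.2 and 7.43 CPM with RA. RA and untreated libraries did not overlap in WT or in KO. The log2 differences were -0.64 in WT and -1.07 in KO (edgeR adjusted p = 0.565 and 0.134); without KO RA replicate 3 they were -0.64 and -0.67 (edgeR adjusted p = 0.00572 and 0.00416). Its partner Lrp6 was at 24.2 to 39.8 CPM in WT NO and 28.3 to 31.2 CPM in WT RA and was not called in either fit. Fzd3, Fzd4, Fzd5, Fzd6 and Fzd7 were also called in neither.

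With all libraries edgeR called no transducer: 0 of 6 in each of the 5 comparisons, with 0 at an unadjusted p under 0.05. DESeq2 called 0 of the 30 tests and limma-voom 5. Over all 16502 genes limma-voom called 985 to 4531 in a comparison. Ctnnb1 was at 309, 367 and 484 CPM in WT NO and 406, 411 and 404 CPM in WT RA. In KO cells it was at 398, 422 and 418 CPM untreated and 466, 495 and 332 CPM with RA. The groups overlapped in every comparison, and the 95% intervals of the log2 differences were -0.45 to 0.63 for KO NO against WT NO and -0.46 to 0.62 for KO RA against WT RA, where the difference was 0.08, or 0.23 without KO RA replicate 3. Axin1, a scaffold of the complex that degrades beta-catenin, was at 45.7, 44.2 and 43.1 CPM in WT NO and 33.7, 31.7 and 34.1 CPM in KO NO. It was at 38.6, 41.7 and 38.7 CPM in WT RA and 31.4, 31.5 and 11.6 CPM in KO RA. KO lay below WT in both conditions without overlap. On library totals without TMM scaling KO RA and WT RA overlapped. The log2 difference between untreated cells was -0.42 (edgeR adjusted p = 0.696, or 0.0223 without KO RA replicate 3). Axin2, both a scaffold and a target gene of beta-catenin, spanned 14.8 to 27.5 CPM untreated and 11.4 to 23.6 CPM treated in WT cells, and 15.8 to 23.8 CPM untreated and 5.35 to 35.6 CPM treated in KO cells. It was not called, and the 95% interval for KO RA against WT RA was -0.65 to 1.80 (log2 difference 0.58, or 1.03 without KO RA replicate 3). WT NO replicate 3 and WT RA replicate 2 were the highest of their groups. Dvl1, Dvl2 and Dvl3, which carry the signal from the receptor, were called in no comparison in either fit.

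None of the 4 nuclear factors was called by edgeR with all 12 libraries, with 1 of 20 tests at an unadjusted p under 0.05. DESeq2 called 0 of the 20 and limma-voom 6, beside 985 to 4531 of all genes in a comparison by limma-voom. Tcf7 was at 36.9, 33.6 and 54.6 CPM in WT NO and 23.9, 24.5 and 23.9 CPM in WT RA. KO libraries held 42.2, 36.4 and 41.7 CPM untreated and 23.6, 25.8 and 5.35 CPM with RA. RA libraries lay below untreated ones in both genotypes without overlap. The log2 differences were -0.79 in WT and -1.13 in KO (edgeR adjusted p = 0.509 and 0.15), and without KO RA replicate 3 both were called, at -0.79 and -0.71 (edgeR adjusted p = 0.0185 and 0.0319). Lef1, a target of the pathway as well as its effector, was at 61.9, 80.7 and 13.1 CPM in WT NO and 37.8, 14.1 and 30.9 CPM in WT RA. It was at 78.5, 58.1 and 69.6 CPM in KO NO and 35.2, 40.7 and 10.5 CPM in KO RA. KO groups did not overlap, but the WT groups did, as WT NO replicate 3 was the lowest of the 6 WT libraries. The log2 difference was -1.25 in KO (edgeR adjusted p = 0.238; without KO RA replicate 3, -0.87 and 0.373) and -0.91 in WT (edgeR adjusted p = 0.626).

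Tcf7l1, mostly a repressor of target genes, was at 40.4, 29.7 and 49.3 CPM in WT NO and 22.5, 20.7 and 27.3 CPM in WT RA, without overlap. In KO cells it was at 30.9, 19.03 and 42.0 CPM untreated and 41.9, 62.5 and 13.1 CPM with RA. KO RA replicates 1 and 2 lay above all WT RA libraries and replicate 3 lay below them. The log2 difference of KO RA from WT RA was 0.74 (edgeR adjusted p = 0.426) and 1.15 without replicate 3 (edgeR adjusted p = 0.0441). Tcf7l2 was at 9.51, 10.2 and 16.6 CPM in KO NO and 29.9, 27.2 and 6.04 CPM in KO RA. WT libraries held 19.9, 19.7 and 8.75 CPM untreated and 15.1, 20.8 and 16.7 CPM with RA, and WT NO replicate 3 was again the lowest of its group. Its RA response in KO cells was 0.80 (edgeR adjusted p = 0.342) and 1.22 without KO RA replicate 3 (edgeR adjusted p = 0.0319).

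The polarity genes Vangl1 and Vangl2 encode membrane proteins of the planar cell polarity pathway. Vangl2 was at 17.8, 18.2 and 18.1 CPM in WT NO and 10.6, 13.2 and 13.1 CPM in KO NO. RA libraries held 15.3, 18.1 and 18.6 CPM in WT and 19.1, 20.7 and 5.74 CPM in KO. The untreated KO libraries lay below the untreated WT libraries, while after RA replicates 1 and 2 of KO lay above WT and replicate 3 below. The log2 difference between untreated cells was -0.56 (edgeR adjusted p = 0.638, or 0.0279 without KO RA replicate 3), and the RA response of KO cells was 0.31 (edgeR adjusted p = 0.618) with all libraries and 0.68 without that one (edgeR adjusted p = 0.0101). Vangl1 was at 38.1, 49.2 and 33.7 CPM in WT NO and 35.6, 37.1 and 24.4 CPM in WT RA. It was at 42.3, 45.8 and 42.8 CPM in KO NO and 54.1, 33.1 and 41.7 CPM in KO RA. Its groups overlapped in all comparisons and none was called, with a 95% interval of -0.56 to 0.52 for the RA response of KO cells, which was -0.02, or -0.01 without KO RA replicate 3.

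**Figure D4:**
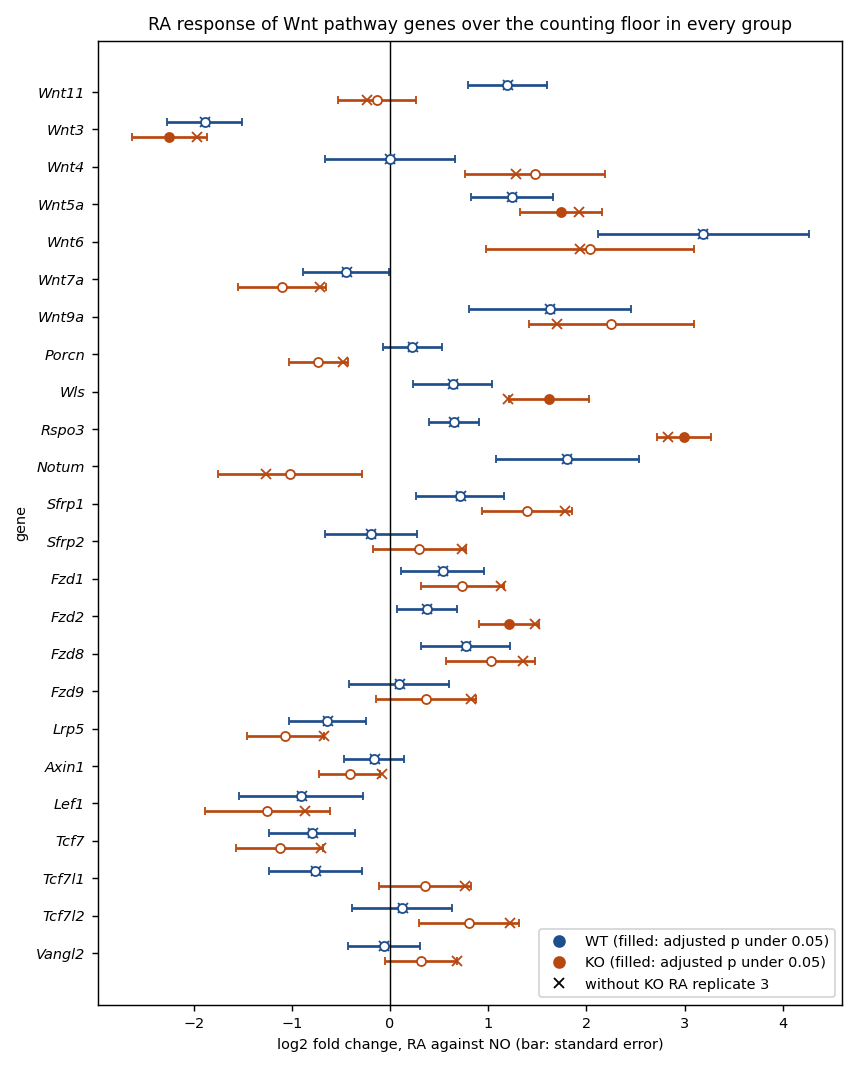
Log2 fold change of RA against NO (horizontal axis, bars are SE) in WT and in KO cells, for the 24 Wnt genes that were called, or did not overlap at a log2 fold change of at least 1 in size, in some comparison and were above the floor of 3 counts in at least 1 library of every group; filled symbols mark an edgeR adjusted p under 0.05 and crosses give the fold change without KO RA replicate 3. Rspo3 in KO (2.99) lies farthest to the right of the called genes, Wnt3 lies to the left in both genotypes, and leaving out KO RA replicate 3 moves the Fzd1, Fzd8, Fzd9 and Tcf7l2 responses of KO cells to the right.

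In counts of all libraries, RA and untreated groups did not overlap for 22 of the 46 genes in KO cells (30.2% of all genes tested did not overlap) and for 13 of 46 in WT cells (29.1% of all genes). KO and WT did not overlap for 17 of 46 genes untreated (30.7% of all genes) and for 11 of 46 after RA (20.9% of all genes). On library totals without TMM scaling the counts of Wnt genes were 17 for RA in KO cells and 13 for RA in WT cells. They were 16 for KO against WT untreated and 7 after RA. The share of all genes on that scale is not given here. The median log2 fold change of the Wnt genes tested was 0.23 for the RA response of KO cells and 0.18 for that of WT cells, beside 0.11 and -0.01 over all genes tested. It was -0.02 for KO NO against WT NO and 0.07 for KO RA against WT RA, beside -0.02 and 0.09 over all genes. Without KO RA replicate 3 the counts and the medians of the Wnt genes were larger in the comparisons that hold KO RA. For KO NO against WT NO and the RA response of WT cells the counts stayed at 17 and 13. Their medians were then -0.02 and 0.16. RA and untreated groups of KO cells then did not overlap for 37 of the 46 genes (55.7% of all genes) and KO RA and WT RA for 27 of 46 (47.9% of all genes). The medians of the Wnt genes were then 0.39 for the RA response of KO cells and 0.37 for KO RA against WT RA, beside -0.02 and 0.01 over all genes.

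Other genes of the pathway were counted from lists. Of 19 membrane and extracellular regulators tested, 5 rose with RA in KO cells and 0 fell, where 5.48% of all genes were called; their median log2 fold change was 0.97 beside 0.11 over all genes. They were Frzb, a secreted Frizzled-related antagonist (log2 fold change 3.55, SE 0.68, edgeR adjusted p = 0.0138), Tspan12, a co-receptor component of FZD4 signalling (2.23, SE 0.55, edgeR adjusted p = 0.0397), the glypican Gpc4 (1.74, SE 0.28, edgeR adjusted p = 0.00703), Adgra2, a co-activator of WNT7 signalling (1.47, SE 0.36, edgeR adjusted p = 0.0399), and Tpbg, an inhibitor at the membrane (1.49, SE 0.23, edgeR adjusted p = 0.00581). Tpbg was also higher in KO RA than in WT RA (log2 fold change 1.32, SE 0.23, edgeR adjusted p = 0.0229). Of 25 further polarity and non-canonical genes, Nkd1 and Dact3 rose with RA in KO cells and Dact2 fell; all 3 encode proteins that bind Dishevelled. Of 16 nuclear co-factors 1 was called in that comparison, Pygo1, which rose (log2 fold change 2.11, SE 0.47, edgeR adjusted p = 0.0275), and of 19 genes of the destruction complex and transduction edgeR called 0 in each of the 5 comparisons. Of these 95 tests 8 had an unadjusted p under 0.05, DESeq2 called 3 and limma-voom 11. Over all genes DESeq2 called 309 to 2632 and limma-voom 985 to 4531 in a comparison. Frzb was at 3.03, 2.14 and 6.59 CPM in WT NO and 0.673, 0.562 and 0.921 CPM in KO NO. It was at 1.59, 1.31 and 1.10 CPM in WT RA and 16.5, 6.50 and 2.28 CPM in KO RA. Without KO RA replicate 3 its RA response was larger in KO than in WT by a log2 difference of 5.53, SE 0.70, edgeR adjusted p = 0.0113, a call not made with all libraries. The same was so of Celsr1, a core polarity gene (2.04, SE 0.31, edgeR adjusted p = 0.0213), and of Bcl9, a co-factor of beta-catenin (edgeR adjusted p = 0.0464). For the RA response of KO cells, where 16.0% of all genes were called without that library, the fit called 9 higher and 1 lower (Lgr4, an R-spondin receptor) of 21 membrane regulators. It called 6 higher and 1 lower of 26 polarity genes, 3 higher of 16 nuclear co-factors, and Apc2 and Gsk3b higher of the 19 destruction complex genes. For KO RA against WT RA, with 9.85% of all genes called, it called 2, 6, 6 and 2 genes of these lists, and for KO NO against WT NO, with 8.77% called, it called 4, 3, 1 and 1.

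Genes known as targets of beta-catenin did not move in 1 direction. Of 25 tested, 2 rose (Bmp4, log2 fold change 1.87, SE 0.38, edgeR adjusted p = 0.0193, and Nkd1, 1.21, SE 0.28, edgeR adjusted p = 0.0305) and 1 fell (the mesoderm gene T, -2.25, SE 0.38, edgeR adjusted p = 0.0082) with RA in KO cells. In WT cells T alone was called and fell (log2 fold change -2.17, SE 0.37, edgeR adjusted p = 0.0368). Between KO and WT edgeR called 0 targets in either condition with all libraries, with 7 of 25 untreated and 8 of 25 after RA at an unadjusted p under 0.05. DESeq2 called 4 and 5 of the 25, beside 1015 and 1315 of all 16502 genes. Limma-voom called 7 and 8 of the 25, beside 3566 and 2987 of all genes. Without KO RA replicate 3 edgeR called 4 untreated (Cdx1, Cdx2 and Sp8 higher and Apcdd1 lower in KO) and 3 after RA (Cdx1, Cdx2 and Sp8 higher in KO). It then called 5 higher and 2 lower for the RA response of KO cells and 1 higher and 3 lower for that of WT cells. The median log2 fold change of the 25 was 0.08 for the RA response of KO cells and -0.33 for that of WT cells, beside 0.11 and -0.01 over all genes. It was -0.04 for KO NO against WT NO and 0.41 for KO RA against WT RA, beside -0.02 and 0.09 over all genes. Axin2, Lef1, Tcf7, Notum and Dkk1 stand both among these targets and among the 58 genes.

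Markers of other cell types were also called in the RA response, where 5.48% of all genes were called in KO cells and 0.406% in WT cells. The summed level of 10 mesenchymal markers, of which 6 rose with RA in KO cells and 3 in WT cells, spanned 25.4 to 69.4 CPM untreated and 111 to 126 CPM treated in WT cells, and 42.8 to 49.8 CPM untreated and 125 to 518 CPM treated in KO cells, highest in KO RA replicate 3. That of 7 neural crest markers, 4 of which rose in KO cells and 2 in WT cells, was 10.4 to 15.5 CPM in KO NO and 24.8 to 45.1 CPM in KO RA. In WT cells it was 14.5 to 25.2 CPM untreated and 20.2 to 25.2 CPM treated. Not all members of this list rose. Foxd3 was at the floor in all KO RA libraries and was called lower in KO than in WT cells in both conditions. Sox10 was at the floor in all WT NO, WT RA and KO NO libraries. For 6 endothelial markers, 3 of which rose in KO cells, the sum was 1.07 to 2.01 CPM in KO NO and 6.44 to 14.6 CPM in KO RA. Of 9 dorsal neural tube and roof plate markers tested (Wnt1 is known to be made in the roof plate), 2 rose and 1 fell in KO cells. The summed level of this list was 126 to 223 CPM in KO NO, 148 to 444 CPM in KO RA and 172 to 262 CPM in WT RA. That of the 10 neural progenitor markers was 409.7 to 464 CPM in KO NO and 830.3 to 976 CPM in KO RA, with 5 higher, and that of 10 neuron markers 76.7 to 94.6 and 179 to 275 CPM, with 3 higher. In WT cells the neural progenitor sum was 511 to 554 CPM untreated and 580 to 758 CPM treated, and the neuron sum 84.6 to 118 and 156 to 176 CPM. EdgeR called 0 markers of these 2 lists there. Of the endoderm, pluripotency and astroglia markers tested, it called 0 in the RA response of either genotype. Without KO RA replicate 3, where 16.0% of all genes were called in KO cells, 7 mesenchymal, 4 neural crest, 5 endothelial, 5 neural progenitor, 4 roof plate and 4 neuron markers were higher with RA in KO cells. There 1 neural progenitor and 1 roof plate marker were lower. In WT cells, with 10.8% of all genes called, the same lists had 5, 3, 1, 3, 2 and 3 markers higher. Lower in WT cells were 1 neural crest, 1 roof plate and 1 neuron marker. In that fit 2 endoderm markers were higher with RA in KO cells, 1 pluripotency marker was higher in WT cells and 0 astroglia markers were called. Rspo3, Wls, Dkk2, Wnt5a and Frzb moved in the same comparison as the markers called in KO cells. The part of such cells in the values of these genes was not tested.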

How the data were processed

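Polyadenylated RNA was sequenced in 12 libraries, 3 independent passages in each of 4 groups, and samples were grouped by the titles the submitters gave. The authors deposited 1 table of estimated counts per gene, scaled for transcript length, which they made with nf-core/rnaseq (STAR and Salmon) on GRCm39; the submitters' notes also name DESeq2. Among 3851 genes above 0 in only 1 library, values fell with exonic length (Spearman -0.685 across genes, which are not independent replicates), with a median of 11.99 up to 500 bp and 0.845 over 3000 bp. No column of per-sample values was left unused (0).

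Values were rounded to whole numbers. Of 57010 genes, 27569 were at 0 in all libraries, and edgeR's filterByExpr kept 16502. Counts were scaled by TMM and fitted with edgeR's quasi-likelihood test (glmQLFit, glmQLFTest) in 1 model with a coefficient for each group, followed by 5 comparisons (the genotypes without and with treatment, the treatment within each genotype, and the gap between the treatment's effects), with Benjamini-Hochberg adjustment over all genes and calls at an adjusted p under 0.05. The common dispersion was 0.215 and the median prior df 3.22. CPM used the TMM-scaled library totals. Counting floors (3 counts in a library) are in scaled counts, so they stand for different numbers of reads in different genes. The count model took these scaled counts as if they were reads. The p values cover the spread between these passages only.

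The members were chosen by symbol, and the lists of other genes and all choices were made with earlier results of these data known. Genes named with all their values were those called in any comparison with all libraries or without KO RA replicate 3, or with groups that did not overlap and a log2 fold change of at least 1 in size, at most 30 by adjusted p, together with the most abundant ligand, receptor, inhibitor, transducer, nuclear factor and polarity gene of WT NO, and Vangl2, Porcn, Notum and Wnt1. Alternatives were DESeq2, limma-voom with sample quality weights, other scalings and filters, a replicate block, fits of only the libraries compared and the loss of each library in turn. The edgeR fit was also run on simulated counts with the same spread for every gene and no library like KO RA replicate 3. That run does not show how the fit behaves on these data. Promoters came from RefSeq (GRCm38.p6) and gene positions from GENCODE mouse M39 (GRCm39). Versions were R 4.3.3, edgeR 4.0.16, limma 3.58.1, DESeq2 1.42.0, Python 3.11.15 and matplotlib 3.10.9.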

Additional observations from a re-analysis of the deposited data

Results flagged for a closer look

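The RA response of Rspo3 differed between KO and WT cells by the test of the difference itself once KO RA replicate 3 was left out. The response of KO cells was then larger by 2.18 on the log2 scale (edgeR quasi-likelihood test, adjusted p = 0.0191). After TMM scaling Rspo3 was higher in both KO RA libraries than in all 3 KO NO libraries. It was also higher in all 3 WT RA than in all 3 WT NO libraries, which overlapped on library totals. With all 12 libraries the difference was 2.34 (edgeR adjusted p = 0.0825). Groups of 3 libraries were too small for a test of single libraries that lie far from their group.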

How the results depend on the processing

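The number of Wnt genes called moved with the tool and the libraries. For KO against WT untreated, KO against WT treated, RA in WT, RA in KO and the contrast of both RA effects, in this order, edgeR called 1, 2, 0, 7 and 0. DESeq2 on all libraries called 2, 7, 2, 11 and 1, and limma-voom with sample quality weights 12, 12, 13, 22 and 2. DESeq2 on only the libraries compared called 7, 4 and 4 in the first 3, and edgeR on these libraries 2, 0, 2 and 2 in the first 4. On library totals without TMM factors edgeR called 0, 0, 0 and 1. A minimum of 10 counts in every library left 0 for the first, and no filter on low counts left 4 for the fourth. Leaving out 1 library gave 0 to 6, 0 to 4, 0 to 4, 2 to 16 and 0 to 1, with the highest count in each case without KO RA replicate 3. Without WT NO replicate 3, WT RA replicate 2 and KO RA replicate 3 together, a choice made after seeing the data, it gave 11, 9, 7, 22 and 3.

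Over all genes edgeR called 188, 205, 67, 904 and 0, DESeq2 1015, 1315, 924, 2632 and 309, limma-voom 3566, 2987, 3562, 4531 and 985, and edgeR on library totals 112, 89, 0 and 140. With only the libraries compared DESeq2 called 2014, 675, 1886 and 1617, and edgeR 718, 16, 545 and 196. Leaving out 1 library gave 40 to 1520, 19 to 1707, 0 to 1868, 194 to 2776 and 0 to 232, and without the 3 libraries together 3055, 3360, 2823, 4702 and 1413.

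Libraries with the same replicate number did not deviate together: over 18 pairs the correlation of same-numbered deviations ran from -0.238 to 0.0957. With 3 libraries in each group these correlations cannot decide whether the passages were paired. With a replicate block edgeR called 0, 0, 0, 3 and 0 Wnt genes and 56, 59, 10 and 467 genes in all in the first 4 comparisons.

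Of the log2 fold changes of named genes over all alternatives, 829 kept their direction and side of the threshold, 105 passed it newly, 73 no longer passed it and 2 changed sign. These were the RA effects in KO cells of Sfrp2 (-0.13) and Fzd9 (-0.17) without KO RA replicate 2, where replicate 3 took more weight, beside 0.74 and 0.82 without KO RA replicate 3. Sfrp5, Wnt1, Dkk2 and most ligands rest on few counts, so smaller differences were not detectable at this depth.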

Other observations

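WT NO replicate 3 and WT RA replicate 2 left their groups in 6 Wnt genes in common, which were chosen after their values were seen. Of the 46 Wnt genes tested, these 6 differed by at least 1 on the log2 scale from the other libraries of the group in both, and all 6 in the same direction, against 511 of 867 such genes over all genes tested. Wnt2b, Wnt4, Wnt6, Wnt9a and Notum were above and Lef1 was below. Lef1 was at 13.1 CPM in WT NO replicate 3 against 61.9 and 80.7 CPM, and at 14.1 CPM in WT RA replicate 2 against 30.9 and 37.8 CPM. Axin2 was higher than its group in both, at 27.5 CPM against 14.8 and 16.0 CPM and at 23.6 CPM against 11.4 and 12.01 CPM. Other Wnt genes left the group in only 1 of these libraries, among them Wnt11, Wnt5a, Wnt9b and Tcf7l2 in WT NO replicate 3 and Wnt1 and Dvl1 in WT RA replicate 2.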
